A study of Mus musculus with 2 samples.

Results

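The mouse microRNA (miRNA) genes numbered Mir6896 to Mir7118 are a batch of late-annotated hairpins, most of them tied to splicing of a host gene. They were taken by symbol from GENCODE M21, and 205 of the 2202 miRNA genes in the count tables carry such a number. The 205 genes cover 202 of the 223 numbers and sit in 200 host genes on 20 chromosomes. Small RNAs came from hippocampal tissue, labelled a layer of hippocampus, of B6CASTF1/J females at 2 months, with no treatment named. These are F1 hybrids of the C57BL/6J strain and a strain derived from Mus musculus castaneus. There is 1 group with 2 libraries, numbered as biological replicates 1 and 2, whose tissue pieces are recorded separately under a single donor entry. No label says that separate animals were used, so their spread, and any difference called between them, may be technical. The p-values below come from the counts of each gene alone and do not measure that spread. Levels below are CPM, counts on the sense strand per 1000000 sense counts on miRNA genes. They are not divided by length, since mature strands are alike in length, with a median of 22 bases.

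Most miRNAs are cut out of long transcripts in 2 steps, by the nuclear enzyme Drosha and then by Dicer. A mirtron skips the Drosha step, because the spliced and debranched intron folds into the hairpin by itself. In a tailed mirtron 1 end of the hairpin is set by the splice site, and the rest of the intron has to be trimmed away. The product is then cut by Dicer and loaded into Argonaute like any other miRNA, and its seed (bases 2 to 8) selects targets.

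The hairpins printed here show the 3 forms at an intron end found among these genes. In each, capitals mark the GU or AG at an intron end, the splice signals of the host, and the sequences and positions are those of RefSeq on GRCm38.p6. Mir7080 and Mir6944 span an intron from end to end. Mir7044 and Mir7066 lie at the 3′ end of a longer intron, and Mir6936 lies at the 5′ end of an intron.
Mir7080, chr8:123130106-123130172, plus strand: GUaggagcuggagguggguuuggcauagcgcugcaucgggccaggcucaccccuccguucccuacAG
Mir6944, chr13:55477681-55477776, minus strand: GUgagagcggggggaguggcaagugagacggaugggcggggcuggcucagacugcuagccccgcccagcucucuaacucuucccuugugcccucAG
Mir7044, chr6:118085192-118085263, plus strand: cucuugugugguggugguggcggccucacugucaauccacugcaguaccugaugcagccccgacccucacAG
Mir7066, chr8:70102524-70102586, minus strand: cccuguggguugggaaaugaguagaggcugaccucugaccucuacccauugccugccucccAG
Mir6936, chr11:120624823-120624876, minus strand: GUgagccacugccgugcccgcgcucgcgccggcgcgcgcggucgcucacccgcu

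The mature strands of Mir7080, Mir6944, Mir7044 and Mir7066, among the most abundant genes of the batch, are given next with the seed in capitals. The 5p strands are rich in purines and the 3p strands in pyrimidines, and several 3p strands end on the AG of the intron. The counts are per hairpin, so they do not tell which of the strands was sequenced.
miR-7080-5p: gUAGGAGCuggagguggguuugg
miR-7080-3p: cAGGCUCAccccuccguucccu
miR-6944-5p: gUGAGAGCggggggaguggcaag
miR-6944-3p: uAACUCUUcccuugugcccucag
miR-7044-5p: gUGUGGUGgugguggcggc
miR-7044-3p: aUGCAGCCccgacccucacag
miR-7066-5p: uGGGUUGGgaaaugaguagagg
miR-7066-3p: uCUACCCAuugccugccucccag

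The label of mirtron-like genes was checked against the positions in the annotation. Of the 205 hairpins, 192 (93.7%) ended within 5 bases of the 3′ end of an intron of a gene on the same strand, and 191 of these ended exactly on its last base. Among the 1997 other miRNA genes 35 (1.75%) did so. Of the 192, 15 spanned a whole intron, the form of a classic mirtron, and 177 lay at the end of a longer intron. The other genes were 4 hairpins at the 5′ end of an intron, namely Mir6936, Mir6977, Mir6927 and Mir6973b, 1 inside an intron (Mir7036b in Add1, 237 bases from its 5′ end), and 8 that overlapped an exon and met no intron end within the tolerance. Counting every annotated transcript, 43 of the 205 overlapped an exon of some transcript, Mir7080, Mir7044, Mir7019, Mir6936 and Mir7036b among them. Of those 8, 7 reached 6 or 7 bases past the 3′ end of an intron into the next exon, and Mir7025 in Pdgfra was the exception. None of the 205 lacked a host gene, against 987 of the 1997 others. The host was a protein-coding gene for 203, and Mir7094-1 and Mir7094-2 sat in immunoglobulin variable segments.

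**Figure D1:**
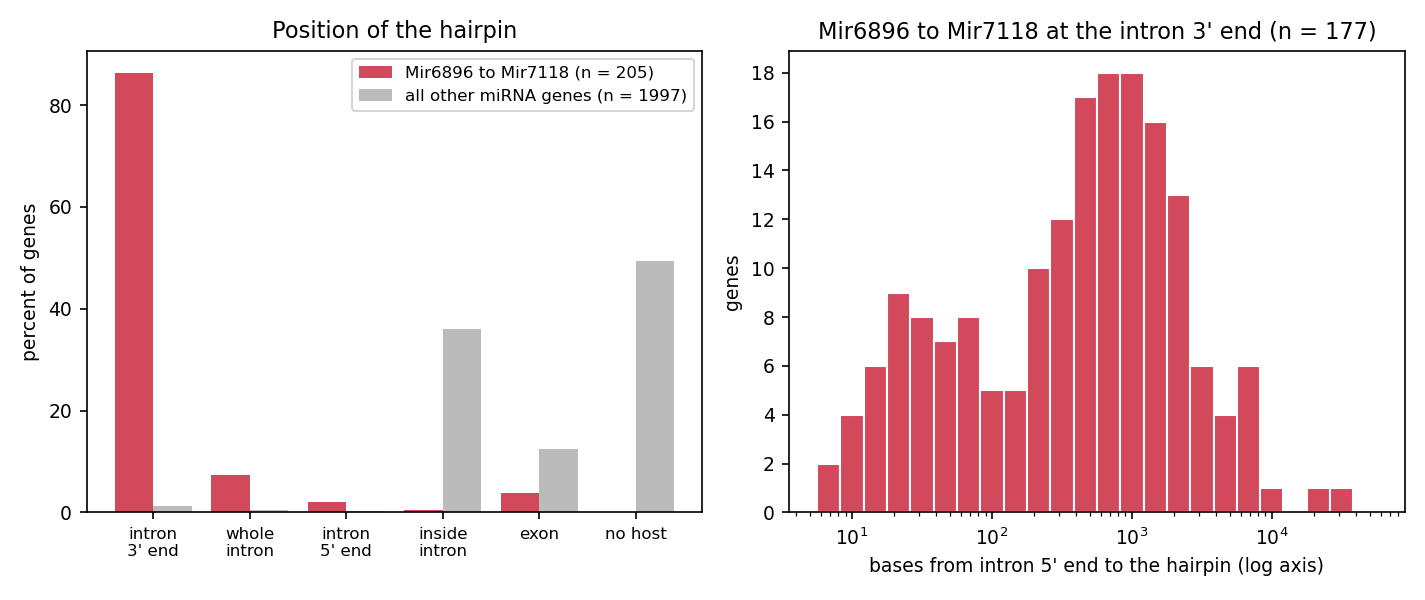
Left, percent of genes (vertical axis) by position of the hairpin in a host gene on the same strand, for Mir6896 to Mir7118 (red) and all other miRNA genes (grey). Right, number of genes by the distance from the 5′ end of the intron to the hairpin, in bases on a log axis, for the 177 genes at an intron 3′ end. The red bars stand mostly at the intron 3′ end, while the grey bars stand mostly inside introns and outside host genes.

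The 177 tailed genes differ widely in how much intron precedes the hairpin. Where several introns ended at the hairpin, the shortest was used. The stretch before the hairpin ran from 7 to 36205 bases with a median of 505, and was longer than 100 bases in 132 genes. The introns that were themselves the hairpin had lengths close to it, such as 67 bases for Mir7080 and 96 for Mir6944. The hairpins were short, with a median annotated length of 66 bases (52 to 137) against 93 for the other miRNA genes.

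The sequences carry the marks of that position, so these marks are not separate support for it. RefSeq listed 189 of the 205 symbols, with 183 hairpins and 362 mature strands. The hairpin ended in AG in 170 of the 183 (92.9%), against 8.27% of 822 other hairpins in the same table. Of the 171 3p strands whose hairpin ends at an intron 3′ end, 133 ended on the last base of the intron, 32 ended 1 to 3 bases before it and 6 ended earlier, by up to 7 bases. The 3p strands had a median of 72.7% pyrimidines (54.5% in 550 other 3p strands), and the 5p strands 31.8% (50.0% in 546 others). A pyrimidine-rich tract before the AG is the usual form of an intron 3′ end. In the 15 whole-intron genes, 11 of the 13 listed 5p strands started on the first base of the intron.

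Of the 362 listed mature strands, 272 had a seed that no mature strand of another gene in the table shares. Another 56 shared it with another gene of the batch. The 16 symbols without a RefSeq entry are outside these counts. No matching share was computed for the other mature strands, so unshared seeds are not shown to be particular to the batch. Within the batch, the 5p strand of Mir7019 shares UCUGGGA with miR-6907-5p. Outside the batch, miR-7069-3p shares its seed with miR-18a-3p. The seed of miR-6926-5p is shared with miR-194-2-3p and, within the batch, with miR-7055-5p. That of miR-7016-5p is shared with miR-149-3p, miR-1943-5p and miR-6967-5p, and the last was not counted as a gene of the batch despite its number.

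Replicate 1 held 11666435 reads with 4517648 sense counts on miRNA genes, and replicate 2 held 16280072 reads with 5979247. A single count equals 0.221 CPM in the first and 0.167 CPM in the second, and a count of 0 allows up to 3 counts, or 0.664 and 0.502 CPM. Such floors, like the intervals below, describe counting error alone, because PCR copies are not separate molecules. Multimapping reads, 45.9% and 48.4% of the totals, were given to no gene in the tables. Of the 205 genes, 4 (Mir6970, Mir7065, Mir7094-1 and Mir7094-2) share 20 or more identical bases with another miRNA gene, against 1083 of the 1997 others. Matches elsewhere in the genome were not tested. Of the markers of neural tissue, Mir132 stood at 20435 CPM, Mir128-1 at 12311 CPM and Mir137 at 8276 CPM. The neural miR-9 and miR-124 genes, each with several near-identical copies, were low, with Mir9-1, Mir9-2 and Mir9-3 at 10.9, 1.56 and 92.3 CPM and at most 13 counts for any miR-124 gene in a library. Among markers of other cells, the endothelial Mir126a stood at 12438 CPM, the endocrine Mir375 at 256.3 CPM, and the muscle Mir206 at 54.2 CPM, above Mir122 of liver at 38.7 CPM.

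Most of the genes of the batch were seen, and nearly all of them at very low levels. Of the 205, 161 (78.5%) had at least 1 count in a library, 127 had counts in both libraries, and 44 had none. The corresponding share seen was 30.7% of the 1997 other genes, and 51.2% of the 914 others that share no 20-base stretch with another miRNA gene. Of the 161, 47 had 10 or more counts in both libraries, 80 were seen in both with fewer than 10 in at least 1, and 34 were seen in 1 library only, with at most 8 counts. All counts on these genes were on the sense strand, and the antisense total of the 205 genes was 0 in both libraries.

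Together the 205 genes held 0.0724% ± 0.00815 (SD, n = 2) of the counts on miRNA genes. Their 3530 counts were 0.0781% of replicate 1 (95% Wilson interval 0.0756 to 0.0808), and their 3983 counts were 0.0666% of replicate 2 (0.0646 to 0.0687). The summed level was lower in replicate 2 by 0.23 on the log2 scale (95% exact binomial interval -0.30 to -0.16), and without Mir7080 by 0.12. The intervals of the shares did not overlap between the libraries. Without Mir7080 they nearly met, at 0.0450 to 0.0489 in replicate 1 and 0.0415 to 0.0448 in replicate 2. These intervals take each read as a separate molecule, so with PCR copies they can be too narrow. They therefore do not settle whether the libraries differed by more than counting error, and n = 2 gives no test of the spread between samples.

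The sum rested on few genes. Mir7080 alone made up 40.0% of the batch's counts in replicate 1 and 35.3% in replicate 2. The 5 highest genes made up 59.4% ± 1.90, and the 47 genes with 10 or more counts in both libraries 88.2% ± 1.36. Without Mir7080 the share of the batch was 0.0450% ± 0.00270. The median of the 205 genes was 0.610 CPM, 10 genes reached 10 CPM, and 1 reached 100 CPM, whereas 194 of the other miRNA genes reached 100 CPM.

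**Figure D2:**
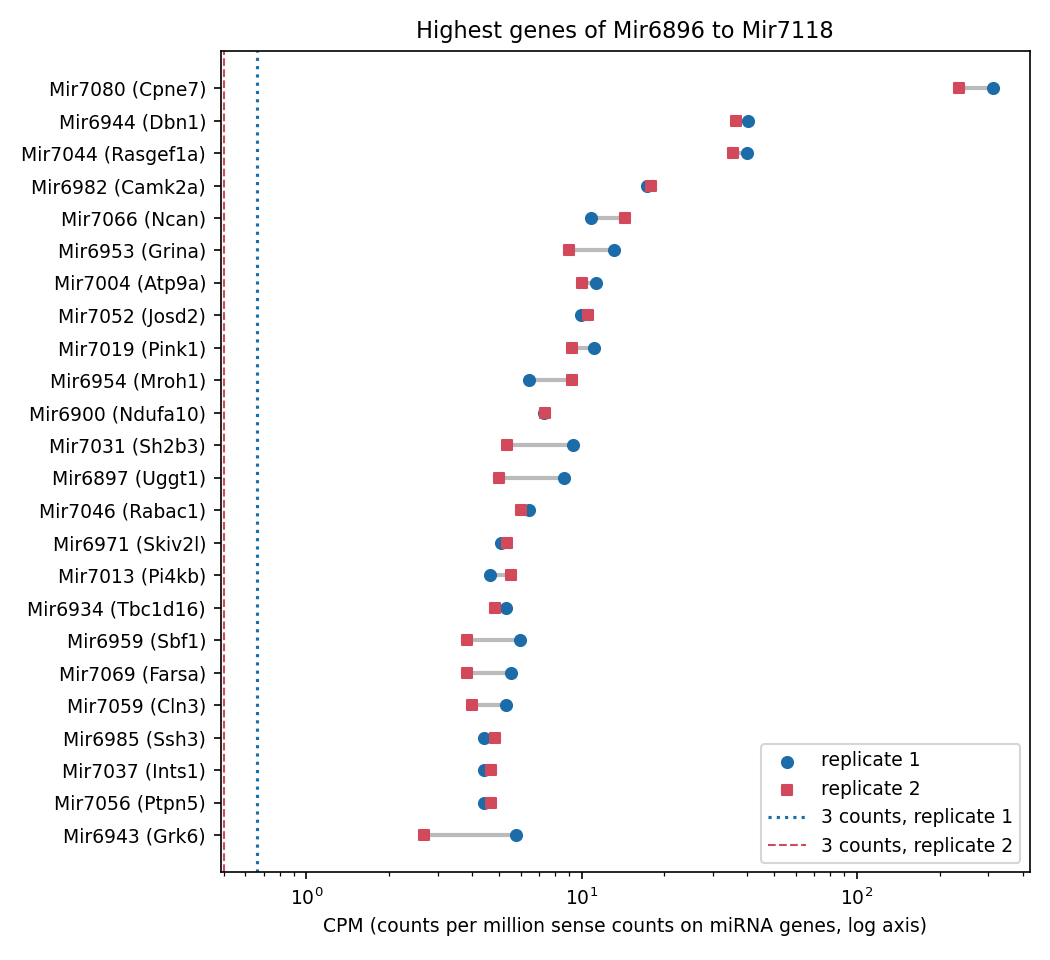
CPM on a log axis in replicate 1 (blue circles) and replicate 2 (red squares) for the genes among the 25 highest in mean level (1 is not shown), with the host gene in brackets and dotted or dashed lines at 3 counts. Mir7080 stands apart at 312.3 and 235.3 CPM, and from Mir7066 downward the points lie close together and often swap order between libraries.

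Mir7080 (ENSMUSG00000098582.1) was the most abundant gene by a wide margin. It is a complete 67-base intron of Cpne7, which encodes a copine, a calcium-dependent membrane-binding protein, and the same intron is also annotated in the overlapping gene Gm20388. Replicates 1 and 2 held 1411 and 1407 counts of it, or 312.3 and 235.3 CPM, with a mean of 273.8 ± 54.5 CPM (SD, n = 2). It ranked 153 among all 2202 miRNA genes.

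Of the 4 genes with 100 or more counts in both libraries, the other 3 lay well below it, and Mir6944 and Mir7044 are described here. Mir6944 (ENSMUSG00000098341.1) is a complete intron of Dbn1, which encodes drebrin, an actin-binding protein of dendritic spines. It had 181 and 217 counts, or 40.1 and 36.3 CPM. Mir7044 (ENSMUSG00000098583.1) ends an intron of 705 bases in Rasgef1a, which encodes an exchange factor for Ras-family proteins, and had 180 and 212 counts, or 39.8 and 35.5 CPM. Mir6944 and Mir7044, at 38.2 ± 2.67 and 37.6 ± 3.10 CPM, did not differ beyond their spread.

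The next 6 genes had mean levels of 10.1 to 17.6 CPM, with Mir6982 the highest of them in both libraries. Mir6982 ends an intron of Camk2a, the alpha subunit of the calcium-calmodulin kinase of synapses, and had 78 and 107 counts (17.6 ± 0.445 CPM). Mir7066 in Ncan, which encodes the brain matrix proteoglycan neurocan, had 49 and 86 counts (12.6 ± 2.50 CPM). Mir6953 in Grina, a membrane protein named for its link to glutamate receptors, had 59 and 54 counts. Mir7004 in the phospholipid flippase gene Atp9a had 51 and 60, and Mir7052 in the deubiquitinase gene Josd2 had 45 and 63. Mir7019 in Pink1, the kinase that marks damaged mitochondria, had 50 and 55. The means of Mir6953, Mir7004, Mir7052 and Mir7019 ran from 10.1 to 11.05 CPM with SDs of 0.407 to 2.85, so their order is not resolved.

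The genes ranked 11 to 25 lay between 4.22 and 7.81 CPM, that is between 16 and 55 counts in a library. Mir6954 (Mroh1) had 29 and 55 counts, and Mir6900, in the complex I gene Ndufa10, had 33 and 44. Mir7031, in the adaptor gene Sh2b3, had 42 and 32 counts, and Mir6897, in Uggt1, which checks the folding of glycoproteins, had 39 and 30. Replicate 1 was thus the lower of the libraries in CPM for Mir6954 and the higher for Mir7031 and Mir6897. Mir7046, in the Rab acceptor gene Rabac1, had 29 and 36 counts, Mir6971, in the RNA helicase gene Skiv2l, 23 and 32, and Mir7013, in the lipid kinase gene Pi4kb, 21 and 33. Mir6934 (Tbc1d16), Mir6959 (Sbf1), Mir7069 in the phenylalanine tRNA synthetase gene Farsa, and Mir7059 in Cln3, a lysosomal gene, had 23 to 29 counts in each library. Mir6985 in the phosphatase gene Ssh3, Mir7037 in the Integrator subunit gene Ints1 and Mir7056 in Ptpn5, the striatum-enriched phosphatase, had 20 in replicate 1 and 28 or 29 in replicate 2. Mir6943, in the G protein-coupled receptor kinase gene Grk6, had 26 and 16. Neighbours in this range lie within a few counts of each other and cannot be ordered.

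A further 22 genes had 10 or more counts in both libraries and mean levels from 2.11 to 4.08 CPM. They sit in hosts of many kinds. Mir6945 (Pdlim7), Mir6968 (Phf1), Mir6986 (Rce1), Mir6988 (Syvn1), Mir6912 (Scamp4) and Mir6915 (Ankrd52) had 14 to 24 counts in a library. Mir6936, the highest of the genes at an intron 5′ end, lies in the deacetylase gene Sirt7 and had 23 and 13. Mir6990 in the nuclear receptor gene Esrra had 12 and 25, Mir7000 in Mapk8ip1, a scaffold of the JNK pathway, had 11 and 26, and Mir6940 (Cep170b) had 22 and 10. Mir6979 (Diaph1), Mir7015 (Smap2), Mir7071 (Heatr3), Mir6962 in the activin receptor gene Acvr1b, Mir6926 (Sgsm2), Mir6906 in the proteoglycan gene Spock2, Mir6928 in the proton pump gene Atp6v0a1, Mir7026 (Ep400), Mir7016 (Tmem39b), Mir7117 in the pyrophosphate transporter gene Ank, Mir6976 in the transcription factor gene Srf, and Mir7115 in the arrestin gene Arrb2 had 10 to 18. At these counts the exact 95% interval of the ratio between the libraries spans more than 2-fold.

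Of the 15 whole-intron genes 10 were seen, and of the 177 at the end of a longer intron 140 were seen. That difference was not tested. After Mir7080 and Mir6944 the whole-intron genes dropped steeply, with Mir6958 (Dennd6b) at 9 and 21 counts, Mir7068 (Cherp) at 9 and 19 and Mir7070 (Fbxw9) at 4 and 14. These 3 were chosen after their values were seen. The class still held 0.0322% ± 0.00541 of all miRNA counts, because of Mir7080, against 0.0394% ± 0.00245 for the tailed class. Along the tailed class the median level neither rose nor fell steadily with the length of intron before the hairpin. With up to 30 bases 24 of 27 genes were seen at a median of 0.834 CPM, with 31 to 100 bases 14 of 18 at 0.278 CPM, with more than 100 and up to 500 bases 36 of 43 at 1.08 CPM, and with more than 500 bases 66 of 89 at 0.556 CPM. Host transcript levels were not analysed here, and the tables give no read lengths.

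Of the 44 genes without a count, 42 lie at an intron 3′ end or span an intron, so they share the position of the genes that were seen. Mir7065, Mir7094-1 and Mir7094-2 are among them and have near copies, so reads on them could be multimapping. The hosts include Myh3 (embryonic muscle myosin), Lat and Grap2 (T-cell signalling), Mcpt8 (a protease named for mast cells), Ctrb1 and Clps (pancreatic digestion), Cfb (complement) and Ltb (a lymphocyte cytokine). They also include broadly used genes such as Ctnnb1 and Ptbp1. These hosts were picked as examples after the counts were seen, so no theme is drawn from them. Apart from the 3 with near copies, these hairpins were not detectable above the floors of 0.664 and 0.502 CPM.

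A total of 5 hosts carry a pair of genes of the batch. In Skiv2l, Mir6971 had 23 and 32 counts and Mir6970 had 5 and 8, although the count of Mir6970 is uncertain because of its copy. In Ankrd52, Mir6915 had 23 and 14 and Mir6914 had 2 and 4. The pairs in Srebf1, Cmip and Arap3 had at most 6 counts per gene and library. The more abundant gene was the same in both libraries for the pairs in Skiv2l and Ankrd52.

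Other hairpins at intron ends put these levels in scale. Mir3102, a complete intron of Arhgef17, stood at 826.4 ± 185.8 CPM, above every gene of the batch in mean level. The mirtron Mir877 in Abcf1 stood at 302.6 ± 10.7 CPM, and the mirtrons Mir1981 in Marc2 and Mir1224 in Vwa5b2 at 227.3 ± 35.1 and 162.5 ± 64.5 CPM. Mir7080, at 273.8 ± 54.5 CPM, lay among these, and its range over the libraries overlapped those of Mir877 and Mir1981. The 35 other genes at an intron 3′ end held 0.973% ± 0.0648 of the counts, most of it from Mir382 in the imprinted Mirg transcript, and 27 of them (77.1%) were seen. Their median was 2.05 CPM. The 58 genes numbered Mir3057 to Mir3113, another late series, held 0.200% ± 0.00329, with 47 (81.0%) seen and a median of 1.62 CPM.

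**Figure D3:**
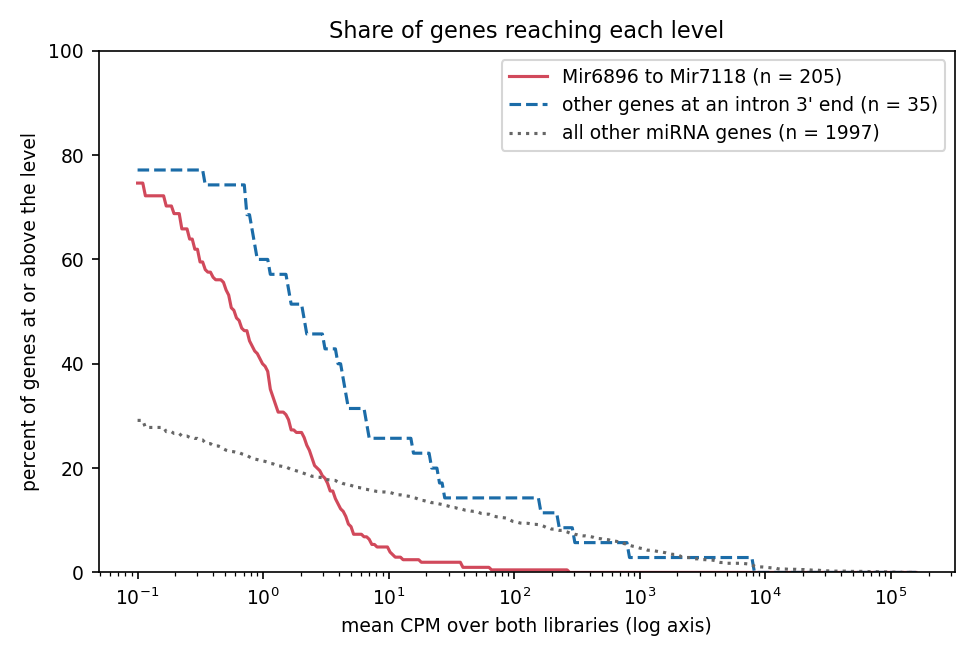
Percent of genes (vertical axis) whose mean CPM over both libraries reached the level on the horizontal log axis, for Mir6896 to Mir7118 (red), the 35 other genes at an intron 3′ end (dashed blue) and all other miRNA genes (dotted grey). The red line starts far above the grey one at the lowest levels and falls below it by 10 CPM, which 10 of the 205 genes reached.

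The only comparison the design allows is between the libraries, and it compares these libraries rather than conditions. Each gene with 10 or more counts in both libraries was set against all other miRNA counts with Fisher's exact test, two-sided, and Benjamini-Hochberg adjustment over all 420 such genes at 0.05. Of the 47 genes of the batch that could be tested, 7 were lower in replicate 2, 0 were higher and 40 did not pass, against 56.9% of all 420 genes called in either direction, 29.8% lower and 27.1% higher. At an unadjusted p under 0.05 the batch also had 0 higher, and TMM and DESeq2 size factors gave 0 higher and 5 lower. The median log2 ratio was -0.12 over the 47 genes and -0.07 over all 420. On this scale, log2(CPM + 0.5), 35 of the 47 lay within 1.5-fold. The added 0.5 pulls ratios toward 0, and the folds given below are ratios of CPM without it. The counts differed as well, with a median of 24 counts per gene in the batch and 435 over all tested genes. Among genes with a mean under 100 counts, 6 of 43 in the batch and 28 of 100 others passed. In the batch 0 were higher and 6 lower in replicate 2, and among the others 15 were higher and 13 lower. Counts were still not matched, with medians of 20.5 in the batch and 31.25 in the others. The 158 genes of the batch with fewer counts were not tested.

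**Figure D4:**
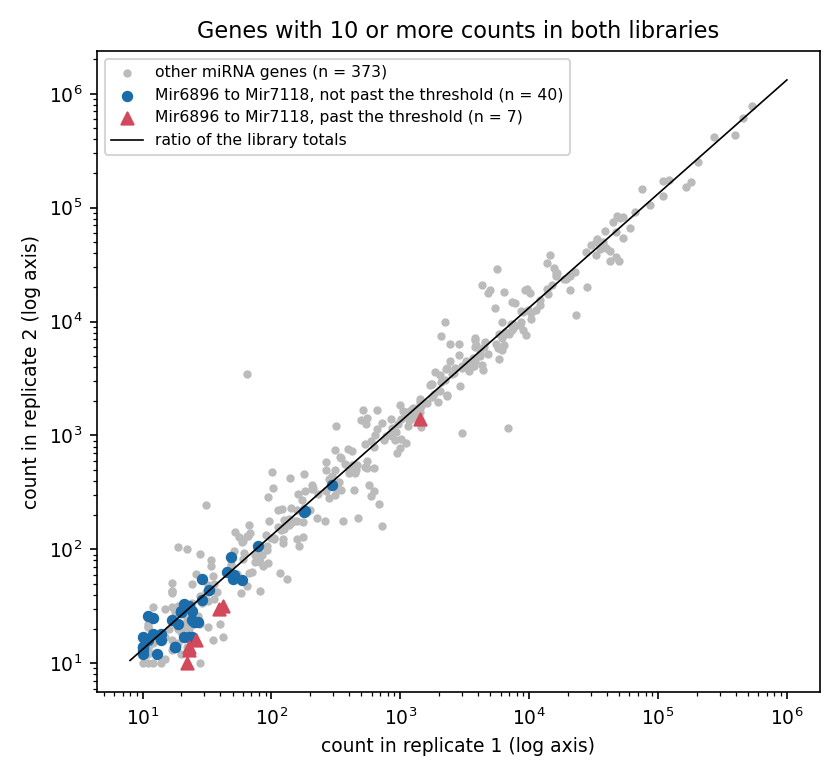
Counts in replicate 2 (vertical, log axis) against replicate 1 (horizontal, log axis) for the 420 genes with 10 or more counts in both libraries, with the ratio of the library totals as a line. The 7 genes of Mir6896 to Mir7118 that passed (red triangles) lie below the line, and all 47 except Mir7080 lie in the lower left, at fewer counts.

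Mir7080 had the firmest difference. It was 1.33-fold higher in replicate 1, with 312.3 against 235.3 CPM and a log2 ratio of -0.41 (95% interval -0.52 to -0.30, adjusted p = 2.2e-13 by Fisher's exact test). Mir6940 was 2.91-fold higher in replicate 1 on 22 and 10 counts (adjusted p = 0.0079 by Fisher's exact test), and Mir6936 and Mir6943 were 2.34-fold and 2.15-fold higher there (adjusted p = 0.032 and 0.034 by the same exact test). Mir6915 was 2.17-fold higher, Mir7031 1.74-fold and Mir6897 1.72-fold, at adjusted p of 0.037, 0.034 and 0.0495 by Fisher's exact test. Mir7080 and Mir6943 were the genes of the 7 that still passed with replicate 2 thinned to the depth of replicate 1. Mir6940 was not tested there, since it no longer had 10 counts in both libraries. Mir6897 and Mir6915 lost their calls with thinning and with either other scaling. The largest ratios in the other direction among the 47 genes, 1.79-fold for Mir7000 and 1.57-fold for Mir6990, did not pass (adjusted p = 0.21 and 0.34 by Fisher's exact test). By the same exact test the known mirtron Mir1224 was likewise lower in replicate 2 (log2 ratio -0.83, adjusted p = 1.4e-30), as was Mir1981 (-0.32, adjusted p = 3.3e-07), whereas Mir877 did not pass (-0.07, adjusted p = 0.24).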

How the data were processed

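MicroRNA sequencing of 2 libraries of 1 group was available. The authors deposited 1 table of raw read counts per library over miRNA genes, not pooled or normalized, on build mm10 with GENCODE M21, per the deposited notes. The labels give an upper limit on RNA size. The aligner, the counter and read trimming were not given in the sources used here. The table of each library has 3 count columns and 4 leading lines of reads given to no gene, which were left out of library sizes. Column 3 was used as the sense strand, because its total is the larger of the strand columns. Unmapped reads were 11.8% and 11.2% of all reads in replicates 1 and 2, reads mapping to several places 45.9% and 48.4%, and reads outside miRNA genes 3.60% and 3.69%.

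CPM, shares (mean ± SD over both libraries, 95% Wilson intervals per library) and log2(CPM + 0.5) ratios with exact binomial intervals were computed with Python 3.11.15 and scipy 1.17.1. Symbols, positions and hosts came from GENCODE M21, and all 2202 identifiers matched. A hairpin end was placed at an intron end within 5 bases, on the same strand. Sequences are RefSeq's on GRCm38.p6, and Mir6953, Mir6954, Mir6971, Mir6979 and Mir6982 are named without one. With 1 group no condition can be tested, so no quasi-likelihood fit of edgeR was made. Genes with 10 or more counts in both libraries were compared by Fisher's exact test with Benjamini-Hochberg adjustment over all genes tested. The p-values measure only differences between these libraries. The Fisher script was tested on data simulated with counting noise alone, which does not show how it behaves with further variation between libraries. TMM factors (edgeR 4.0.16) and DESeq2 1.42.0 size factors were alternatives, with the exact binomial test in place of Fisher's. Genes named are those with 10 or more counts in both libraries, those past the threshold and the highest until 25 were reached. The genes and lists were chosen with earlier results of these data known. Results on 1 gene that the rule names are not reported here.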

Additional observations from a re-analysis of the deposited data

How the results depend on the processing

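The counts of genes seen, seen in both libraries and with 10 or more counts in both stayed within 1.5 times under the column without regard to strand and a thinned replicate 2. Replicate 1 alone showed 141 genes and replicate 2 alone 147. The share of the batch, 0.0724%, was 0.0666% and 0.0781% in the single libraries, 0.0826% without the most abundant miRNA gene in the denominator and 0.0450% without Mir7080. The 7 genes that differed between the libraries became 2 with replicate 2 thinned in 1 random draw (45 genes tested, Mir6940 not among them). They became 1 at a minimum of 100 counts (4 genes tested) and 3 with no filter on counts, and the count was between 5 and 7 otherwise. The genes called were not always those 7, since 5 of the 7 calls at a minimum of 1 count, 6 of the 7 at a minimum of 5 and 2 of the 3 with no filter were shared with them. The calls not shared were Mir7063, with 18 and 5 counts, at all 3 of these settings and Mir6946, with 10 and 2 counts, at a minimum of 1. Log2 ratios near 0 that did not pass changed sign with thinning for Mir6982 (-0.036), Mir6900 (-0.22), Mir7056 (-0.37), Mir6988 (-0.077), Mir6926 (-0.10), Mir6906 (-0.11) and Mir6976 (0.11). Mir6976 also did so with TMM (0.0094) and DESeq2 size factors (0.014), and Mir7071 with DESeq2 size factors (0.0011). Of 280 log2 ratios of single genes under the alternatives, 257 kept their sign and their side of the threshold, 3 became 0, 10 lost the call and 10 changed sign, and the cause was not tested. The 280 include pseudocounts of 1 and 5 CPM for each gene. Neither can change the sign of the ratio or the test, so these kept both by construction. The count of 196 genes at an intron end was 194 at a tolerance of 0 bases and 203 at 10. No paired analysis was possible because the series holds 1 group. Of the 205 genes, 158 had too few counts for a test, and both libraries fall under a single donor entry.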
